A study of Mus musculus with 2 samples.

Results

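Secreted factors that support immune cells in tissue were followed across the cell classes of mouse inguinal white fat (iWAT, which lies under the skin of the groin) by single-nucleus RNA sequencing. The 9 genes were Il33, Il7, Il15, Il6, Csf1, Kitl, Tslp, Tnfsf11 and Tnfsf13b, taken by name out of 31053 genes measured in both libraries, and 8 of the 9 had at least 20 counts in the nuclei kept. The study asked how loss of the long noncoding RNA Lexis bears on fat tissue, and compared 1 library labelled Lexis WT with 1 library labelled Lexis KO. Both came from male C57BL/6 mice on a Western diet, and each library was made from iWAT pooled over 3 mice. In the study's model, floxed Lexis was removed by Cre recombinase driven from the adiponectin gene, which is active in adipocytes, and the controls were floxed mice without Cre. The study's methods describe most of its mice as young adults and do not single out the age of these pools. The protocol states that the lymph node was left out of the tissue, and its text names the control arm for both pools. File names and sample labels disagreed on the genotype of 2 of 2 libraries, and Lexis was not analysed here, so the libraries are called labelled WT and labelled KO throughout.

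These cytokines form the maintenance signals that stromal, vascular and fat cells send to resident leukocytes. IL-33 is an alarmin stored in nuclei of stromal and barrier cells and signals through the receptor encoded by Il1rl1 on innate lymphoid cells, regulatory T cells and mast cells. IL-7 and IL-15 share the receptor chain encoded by Il2rg and keep T cells, innate lymphoid cells and NK cells alive, whereas the products of Csf1, Kitl, Tnfsf13b and Tnfsf11 (CSF-1, stem cell factor, BAFF and RANKL) act on macrophages, mast cells and progenitors, B cells, and osteoclast or lymphoid tissue precursors. TSLP acts on dendritic cells and type 2 lymphocytes, and IL-6 is an inflammatory cytokine.

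After filtering (at least 500 genes and at most 5% mitochondrial UMIs, doublets removed), 3503 nuclei labelled WT and 2852 labelled KO were kept. A UMI (unique molecular identifier) marks 1 captured RNA molecule. The median nucleus held 1195 UMIs when labelled WT and 3879 when labelled KO, a ratio of 3.25. The libraries also differed in makeup. B cells and T/NK cells made up 35.1% and 22.3% of nuclei in the library labelled WT, against 1.16% and 2.38% in the library labelled KO, and 10 barcodes were shared by kept nuclei of both. Levels are given as CPM, the UMIs of a gene scaled to 1000000 UMIs of its class and library. With 1 library per genotype no test was possible, and every interval is a 95% interval that covers counting error only.

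The classes matched their marker lists with limits. Adipocytes (417 nuclei labelled WT, 894 labelled KO) and ASPCs, the adipogenic stem and precursor cells with fibroblasts (300 and 786), were held by different clusters in the libraries: clusters 4 and 1 for adipocytes, and cluster 8 against clusters 5 and 6 for ASPCs. Macrophages (332 and 838) lay mostly in cluster 7 when labelled WT, but in clusters 3 and 9 when labelled KO. Endothelial nuclei (94 and 122) shared cluster 10. A cluster of 150 nuclei, all from the library labelled WT, passed 8 of 12 lymphoid stroma markers, among them Ccl21a, Ccl19 and Cxcl13, against 5 of the mural list, and is called lymphoid stroma-like. Its list was written after earlier results had named these genes. Of the nuclei labelled KO, 0 of 2852 were in this cluster, and 3 counts would be a share of 0.105%.

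In the library labelled WT, lymphoid stroma-like nuclei had the highest level of 4 of the 8 members with enough counts for a source class: Il33, Il7, Tnfsf11 and Tnfsf13b. Of 13027 genes with at least 20 UMIs in that library, 10.7% were highest in this class. These 4 assignments all ended without doublet removal, at a clustering resolution of 0.2 and at 1000 genes per nucleus, settings under which the class was not named on its own. Endothelial nuclei had the highest level of Csf1 and Kitl, dendritic cells of Il15 and macrophages of Tslp, beside 17.7%, 9.0% and 12.0% of all genes highest in these classes. A source could be assigned to 7 members in the library labelled KO. ASPCs were highest for Il33, Csf1 and Tnfsf13b, adipocytes for Il7, endothelial nuclei for Kitl, and macrophages for Il15 and Tslp. In that library 9.38% of 15551 genes were highest in ASPCs, 11.8% in adipocytes, 11.5% in endothelial nuclei and 11.7% in macrophages. Source classes were taken among classes with at least 30 nuclei in the library, and a minimum of 50, chosen after seeing the data, gave the same class in 15 of 15 cases. By level, the source class was thus the same in both libraries for Kitl and Tslp. By share of the library's UMIs instead, the source of Kitl was ASPCs labelled WT and macrophages labelled KO, and that of Csf1 was ASPCs in both, as it was by UMIs per nucleus. By level, Csf1 had overlapping intervals in ASPCs and endothelial nuclei of the library labelled WT.

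**Figure D1:**
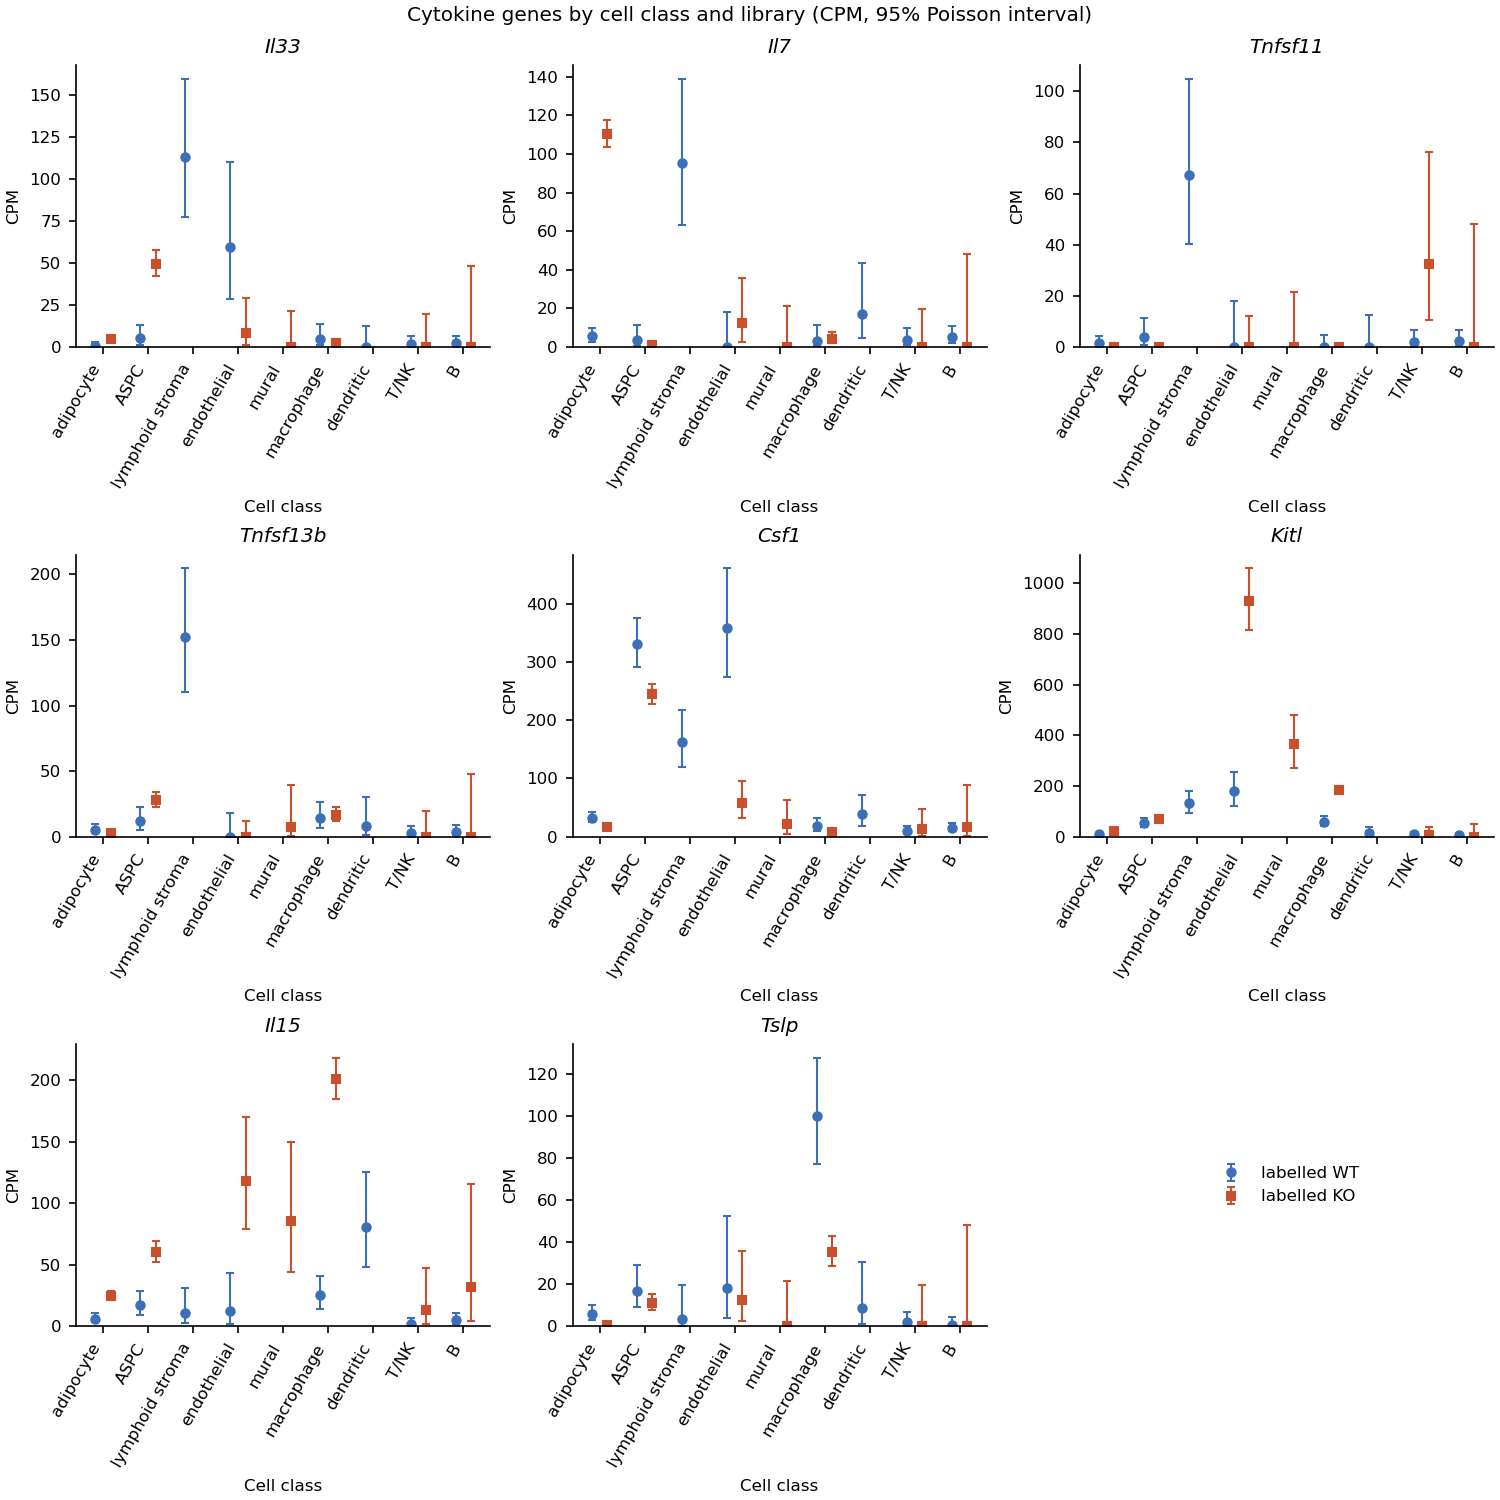
CPM (vertical axis, linear from 0) of 8 cytokine genes in each cell class (horizontal axis) with at least 20 nuclei, in the library labelled WT (circles) and the library labelled KO (squares). Bars are exact Poisson 95% intervals, and a bar over 0 reaches the level of 3 counts. Lymphoid stroma-like nuclei, which only the library labelled WT held, stood at 113 CPM for Il33, 95.5 for Il7, 67.2 for Tnfsf11 and 152 for Tnfsf13b, whereas Il7 reached 110 CPM in adipocytes of the library labelled KO.

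Il7 was almost entirely an adipocyte transcript in the library labelled KO. Adipocytes there held 953 of 971 Il7 UMIs (98.2%), a level of 110 CPM (interval 103 to 118), spread over 377 of 894 nuclei. The 3 nuclei with the most Il7 held 38 of those UMIs. Every other class of that library held at most 12 Il7 UMIs, and ASPCs held 3 at 0.905 CPM. Adipocytes of the library labelled WT held 11 Il7 UMIs in 9 of 417 nuclei, a level of 5.66 CPM (2.82 to 10.1). The adipocyte ratio, labelled KO over labelled WT, was 19.5 (10.8 to 39.2). Each library thus had its own main source of Il7, since the 27 UMIs of the lymphoid stroma-like nuclei were 45.8% of all Il7 in the library labelled WT, at 95.5 CPM (62.9 to 139).

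Depth differed between the adipocytes, with a median of 3643 UMIs per nucleus labelled WT and 7848.5 labelled KO. After each nucleus was thinned to 1000 UMIs, with shallower nuclei left out (10 adipocytes labelled WT and 5 labelled KO), Il7 was found in 82 of 889 adipocytes labelled KO (9.22%, interval 7.4 to 11.3) and in 2 of 407 labelled WT (0.491%). At the same depth, T/NK nuclei gave 0 of 61 labelled KO, where 3 counts would be 4.92%, and 2 of 479 labelled WT. The adipocyte shares thus differed at equal depth too, and with 1 library per genotype, genotype and library cannot be told apart.

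Il33 was found in stromal nuclei of both libraries, but in different ones. In the library labelled KO, ASPCs held 165 of 215 Il33 UMIs at 49.8 CPM (42.5 to 58), and adipocytes held 41 at 4.74 CPM. ASPCs labelled WT held 4 UMIs at 5.2 CPM (1.42 to 13.3), adipocytes 1, endothelial nuclei 10 at 59.8 CPM (28.7 to 110) and lymphoid stroma-like nuclei 32 at 113 CPM (77.4 to 160). The last 2 levels had overlapping intervals. The ratio, labelled KO over labelled WT, was 9.56 (3.67 to 35.5) in ASPCs and 9.22 (1.56 to 373) in adipocytes. In endothelial nuclei the ratio was 0.137 (0.0146 to 0.641), from 2 UMIs against 10, below the minimum of 20 UMIs over both libraries used for counts of genes. The 12 lymphoid stroma markers in these endothelial nuclei summed to 367 CPM labelled KO and 1888 CPM labelled WT, and the 6 lymphatic endothelial markers to 433 and 1966 CPM. Ccl21a is on both lists, so these sums are not separate readings. The part of these markers in the Il33 ratio was not tested. At 1000 UMIs per nucleus, Il33 was found in 40 of 763 ASPCs labelled KO and 2 of 262 labelled WT, but in 0 of 889 and 0 of 407 adipocytes, so the adipocyte difference was not detectable at that depth. Without thinning, 92 of 786 and 4 of 300 ASPCs held a UMI, and T/NK nuclei, which should lack Il33, gave 0 of 61 and 0 of 479 when thinned.

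Within the ASPCs of the library labelled KO, Il33 followed the interstitial type, the Pi16- and Dpp4-positive progenitor of connective tissue planes. Reclustering gave 5 ASPC subclusters. Subcluster 0, interstitial progenitor-like by 4 markers (3 myocyte markers also passed), held 120 Il33 UMIs in 73 of 393 nuclei, a level of 93.1 CPM (77.2 to 111). Subcluster 1, committed preadipocyte-like, held 14 in 7 of 260 nuclei, and 10 of these were in 3 nuclei. Subcluster 3, which passed markers of the F3- and Gdf10-positive regulatory type, held 29 in 11 of 115 nuclei, and 13 of these were in 1 nucleus. Subcluster 0 stood 7.72 times above subcluster 1 (4.43 to 14.6) and 2.58 times above subcluster 3 (1.71 to 4.02). The library labelled WT had its own interstitial progenitor-like subcluster, number 4, with 3 Il33 UMIs in 121 nuclei (17 CPM, interval 3.51 to 49.7). That subcluster also passed 4 T/NK markers, and the unnamed subcluster 2 of that library passed 9 B cell and 6 macrophage markers.

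RefSeq (GRCm38.p6) places a pair of starts in front of Il33, which are shown because the main source of Il33 differed between the libraries, followed by the promoters of Tnfsf11 and Tnfsf13b, the other members with RefSeq promoters that were highest in lymphoid stroma-like nuclei. Each line holds the 250 bases before the start, 5′ to 3′ on the strand of the gene. Capitals mark a match to TATAAA (the TATA box), TGANTCA (AP-1), GGGCGG (Sp1), the NF-kB motif or the direct repeat bound by PPAR, searched on both strands, and overlapping matches run together.
Il33 start 1, chr19:29924863-29925112, plus strand: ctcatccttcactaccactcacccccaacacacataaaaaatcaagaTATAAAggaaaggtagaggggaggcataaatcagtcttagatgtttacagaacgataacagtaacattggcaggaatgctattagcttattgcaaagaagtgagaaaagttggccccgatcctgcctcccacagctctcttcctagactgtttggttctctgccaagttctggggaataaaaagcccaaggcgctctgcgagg
Il33 start 2, chr19:29945540-29945789, plus strand: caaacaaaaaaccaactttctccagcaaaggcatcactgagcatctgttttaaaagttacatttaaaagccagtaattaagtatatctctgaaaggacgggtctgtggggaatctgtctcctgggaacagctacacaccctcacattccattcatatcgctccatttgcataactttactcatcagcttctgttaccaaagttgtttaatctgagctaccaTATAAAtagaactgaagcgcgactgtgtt
Tnfsf11, chr14:78308044-78308293, minus strand: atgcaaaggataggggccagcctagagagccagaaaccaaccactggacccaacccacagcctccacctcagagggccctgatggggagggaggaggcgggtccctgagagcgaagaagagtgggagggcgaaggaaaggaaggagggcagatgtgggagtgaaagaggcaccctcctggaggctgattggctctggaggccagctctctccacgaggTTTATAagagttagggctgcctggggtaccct
Tnfsf13b start 1, chr8:10006217-10006466, plus strand: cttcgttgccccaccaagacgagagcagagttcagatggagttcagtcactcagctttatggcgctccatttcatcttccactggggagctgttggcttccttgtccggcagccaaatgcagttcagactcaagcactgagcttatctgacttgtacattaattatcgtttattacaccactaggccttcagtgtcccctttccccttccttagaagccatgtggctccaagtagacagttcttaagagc
The downstream Il33 start has a TATAAA at bases 29 to 24 before it, and the upstream start has one at bases 203 to 198. Tnfsf11 has one on the other strand at bases 32 to 27, and Tnfsf13b start 1 has none of the 5 motifs. The other Tnfsf13b start, whose window overlaps that of start 1 and is not shown, has an AP-1 match (TGAGTCA) at bases 127 to 121, a motif found in 6.75% of promoters. TATAAA occurs in 12.4% of the 32851 RefSeq promoters of the same length. The G and C share was 45.2% and 39.6% at the Il33 starts, 60.4% at Tnfsf11 and 48.8% at Tnfsf13b start 1, beside a median of 52.4% over all promoters. Windows were taken for 6 members (Il33, Il6, Csf1, Kitl, Tnfsf11 and Tnfsf13b), with 1 chromosome left out of the search for members. A match of letters is a description of the window, not a binding site.

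Tnfsf11 and Tnfsf13b, the TNF family members among the 9, were most abundant in the lymphoid stroma-like nuclei. RANKL, the product of Tnfsf11, drives osteoclasts and lymph node formation. Tnfsf11 had 31 UMIs in the library labelled WT, of which lymphoid stroma-like nuclei held 19 in 11 of 150 nuclei (67.2 CPM, interval 40.5 to 105). No other class of that library held more than 3. Only 5 UMIs were counted in the library labelled KO, in 2 T/NK nuclei (32.6 CPM, interval 10.6 to 76.1). At 1000 UMIs per nucleus it was seen in 9 of 127 lymphoid stroma-like nuclei, 1 of 479 T/NK nuclei labelled WT and 2 of 61 labelled KO.

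BAFF, the product of Tnfsf13b, is the survival factor of mature B cells. Tnfsf13b had 43 UMIs in lymphoid stroma-like nuclei, 152 CPM (110 to 205), which was 52.4% of its UMIs in the library labelled WT. The next classes of that library were macrophages at 14.1 CPM from 9 UMIs and ASPCs at 11.7 CPM from 9 UMIs, with overlapping intervals. ASPCs led the library labelled KO with 93 UMIs in 71 nuclei, 28 CPM (22.6 to 34.4), and macrophages followed with 46 UMIs at 16.7 CPM (12.2 to 22.3). The ratio was 2.4 in ASPCs (1.21 to 5.4), 1.19 in macrophages (0.574 to 2.76) and 0.472 in adipocytes (0.213 to 1.12), where 21 UMIs stood against 10. Only the ASPC interval left out 1. Among ASPC subclusters labelled KO, Tnfsf13b lay at 36 CPM in the regulatory type-like subcluster 3, 26.4 CPM in subcluster 0 and 25 CPM in subcluster 1, and these intervals overlapped.

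**Figure D2:**
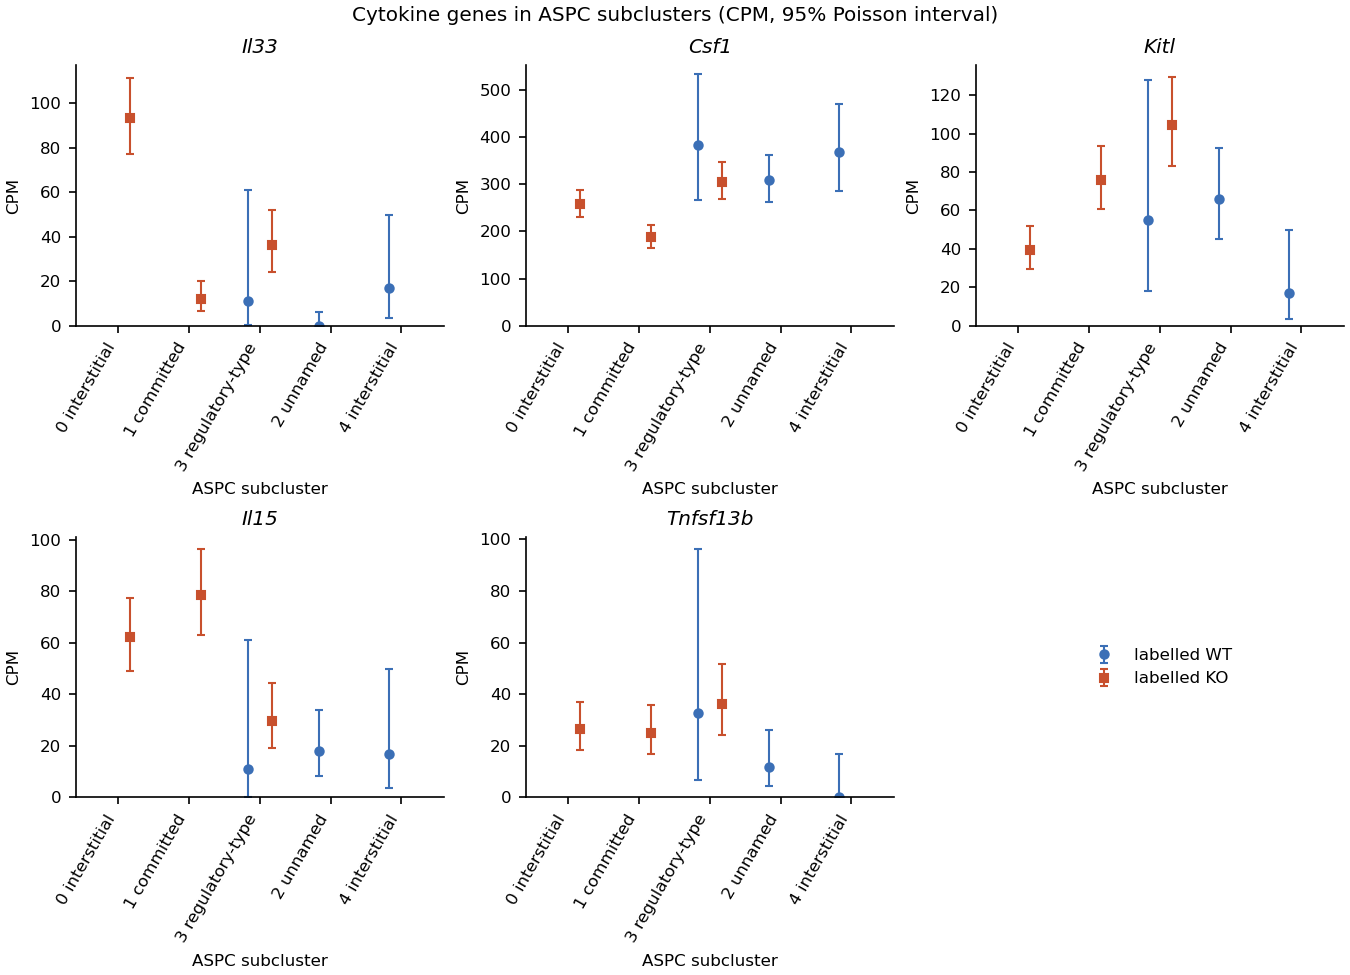
CPM (vertical axis, linear from 0) of 5 cytokine genes in the ASPC subclusters (horizontal axis) with at least 20 nuclei of a library, labelled WT (circles) or labelled KO (squares), with exact Poisson 95% intervals. Il33 is highest in the interstitial subcluster 0 at 93.1 CPM and Kitl in the regulatory-type subcluster 3 at 104 CPM, while Csf1 lies between 188 and 384 CPM in every subcluster drawn.

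Csf1 encodes CSF-1, the growth factor that macrophages need to survive, and ASPCs held most of its UMIs in both libraries. ASPCs held 812 of 1005 Csf1 UMIs in the library labelled KO, 245 CPM (228 to 262), in 389 of 786 nuclei. ASPCs labelled WT held 255 of 484, 332 CPM (292 to 375), in 124 of 300 nuclei. The ratio was 0.738 (0.641 to 0.853), so the level was lower in the library labelled KO by less than 2-fold. Endothelial nuclei held 14 UMIs labelled KO (57.1 CPM, interval 31.2 to 95.9) against 60 labelled WT (359 CPM, interval 274 to 461), a ratio of 0.159 (0.0822 to 0.288). All 6 of the lymphatic endothelial markers noted with Il33 were detected in both libraries' endothelial nuclei. Of the 12 lymphoid stroma markers, 11 were detected labelled WT and 7 labelled KO (with Ccl19, Grem1, Fcer2a, Sox9 and Coch at 0), and the part of these markers in the Csf1 difference was not tested.

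Lymphoid stroma-like nuclei held 46 Csf1 UMIs, 163 CPM (119 to 217), below the ASPC level of the same library. In adipocytes the Csf1 ratio was 0.521 (0.386 to 0.712), from 146 UMIs labelled KO against 63 labelled WT. In macrophages, the cells that read the signal, it was 0.445 (0.212 to 0.981), from 23 against 12. Csf1 was thus lower in the library labelled KO in each of the 4 classes compared. Within the ASPCs labelled KO, the regulatory type-like subcluster had 306 CPM, 1.63 times the committed preadipocyte-like subcluster (1.35 to 1.96). At 1000 UMIs per nucleus, Csf1 was found in 143 of 763 ASPCs labelled KO (18.7%) and 62 of 262 labelled WT (23.7%), and in 5 of 102 and 18 of 63 endothelial nuclei. Among T/NK nuclei the shares were 1 of 61 and 5 of 479.

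Kitl encodes stem cell factor, the ligand of the receptor Kit on mast cells and progenitors, and it was highest in vascular nuclei. Endothelial nuclei held 228 Kitl UMIs labelled KO, 931 CPM (814 to 1059), in 55 of 122 nuclei, of which 50 UMIs lay in 3 nuclei. They held 30 labelled WT, 179 CPM (121 to 256), in 21 of 94 nuclei. The ratio was 5.19 (3.54 to 7.87). The 10 adipocyte markers, all detected in both, summed to 2893 CPM in these nuclei labelled KO and 861 CPM labelled WT, and the 10 endothelial markers to 8529 and 5390 CPM. The lymphatic and lymphoid stroma markers, which share Ccl21a, went the other way. The part of all these markers in the Kitl ratio was not tested. Mural nuclei labelled KO, 44 in number, held 51 UMIs at 364 CPM, with 28 of them in 3 nuclei. In the library labelled WT the endothelial level and the 131 CPM of lymphoid stroma-like nuclei (92.1 to 180) had overlapping intervals.

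Macrophages had a lower level of Kitl but held more of its UMIs than endothelial nuclei did. They held 506 UMIs (41.9% of the library) labelled KO, 184 CPM (168 to 200), in 247 of 838 nuclei, and 37 (19.2%) labelled WT, 57.9 CPM (40.7 to 79.8), in 31 of 332. The ratio was 3.17 (2.27 to 4.56). In ASPCs the levels were 69.7 CPM labelled KO and 53.3 CPM labelled WT, a ratio of 1.31 (0.934 to 1.87), and in adipocytes 22 and 8.74 CPM, a ratio of 2.51 (1.53 to 4.41). Kitl was thus at least 2-fold higher in the library labelled KO in endothelial nuclei, macrophages and adipocytes, but not in ASPCs, and after the correction for gene length only in endothelial nuclei. At 1000 UMIs per nucleus the shares were 38 of 102 and 7 of 63 endothelial nuclei and 116 of 790 and 14 of 254 macrophages, against 1 of 61 and 5 of 479 T/NK nuclei. Among ASPC subclusters labelled KO, Kitl was lowest where Il33 was highest, with 39.6 CPM in subcluster 0, 75.8 in subcluster 1 and 104 in subcluster 3. Subcluster 0 stood at 0.522 of subcluster 1 (0.362 to 0.746) and at 0.379 of subcluster 3 (0.262 to 0.543).

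The promoters of Csf1 and Kitl, the members highest in endothelial nuclei of the library labelled WT, are shown with the same motifs in capitals.
Csf1, chr3:107760470-107760719, minus strand: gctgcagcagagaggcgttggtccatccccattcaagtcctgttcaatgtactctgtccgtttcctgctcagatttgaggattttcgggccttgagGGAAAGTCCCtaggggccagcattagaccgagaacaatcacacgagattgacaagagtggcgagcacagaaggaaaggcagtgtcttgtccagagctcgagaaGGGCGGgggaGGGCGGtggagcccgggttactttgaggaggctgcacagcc
Kitl, chr10:100015571-100015820, plus strand: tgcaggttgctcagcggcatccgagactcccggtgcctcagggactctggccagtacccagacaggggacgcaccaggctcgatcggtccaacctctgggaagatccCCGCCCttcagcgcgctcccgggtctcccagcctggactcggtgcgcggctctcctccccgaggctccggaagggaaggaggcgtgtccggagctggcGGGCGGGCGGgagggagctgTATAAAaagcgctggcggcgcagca
Csf1 has a pair of GGGCGG, at bases 51 to 46 and 41 to 36 before the start, and GGAAAGTCCC, the NF-kB pattern on the other strand, at bases 154 to 145. Kitl has a TATAAA at bases 25 to 20 and 3 GGGCGG, of which the overlapping pair spans bases 45 to 36. GGGCGG occurs in 32.7% of all promoters and the NF-kB motif in 0.356%. The G and C share was 56.4% for Csf1 and 69.2% for Kitl, with 10 and 23 CG dinucleotides.

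Il15 encodes IL-15, which sustains NK cells and memory T cells, and its highest level was in a myeloid class of each library. Macrophages held 554 of 1026 Il15 UMIs labelled KO, 201 CPM (185 to 219), in 306 of 838 nuclei. They held 16 labelled WT, 25 CPM (14.3 to 40.6), in 16 of 332 nuclei, and the ratio was 8.04 (4.9 to 14.2). The macrophage level labelled WT overlapped the 16.9 CPM of ASPCs (9.01 to 28.9). Dendritic cells led the library labelled WT with 19 UMIs at 80.4 CPM (48.4 to 126), above the macrophage interval. Only 9 dendritic nuclei were found in the library labelled KO, and 3 of them held 10 UMIs. Il15 was at least 2-fold higher in the library labelled KO in the other classes compared too. The ratios were 3.58 in ASPCs (2.05 to 6.85), 4.03 in adipocytes (2.26 to 7.92) and 9.9 in endothelial nuclei (2.5 to 85.6), the last from 29 UMIs against 2. After the correction for gene length the log2 ratio went from 1.84 to 1.17 in ASPCs and from 2.01 to 1.435 in adipocytes. In endothelial nuclei it went from 3.31 to 2.93, so these ratios became smaller but stayed at least 2-fold. At 1000 UMIs per nucleus it was found in 130 of 790 macrophages labelled KO (16.5%) and 11 of 254 labelled WT (4.33%), against 1 of 61 and 1 of 479 T/NK nuclei. The 2 macrophage clusters labelled KO differed less, with 235 CPM in cluster 3 and 139 CPM in cluster 9, a ratio of 1.69 (1.39 to 2.08).

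Tslp was a macrophage transcript in these nuclei. Epithelial and stromal cells are its usual sources. Macrophages held 97 of 142 Tslp UMIs labelled KO, 35.2 CPM (28.6 to 43), in 79 nuclei, and 64 of 98 labelled WT, 100.1 CPM (77.1 to 128), in 40 nuclei. The ratio was 0.352 (0.254 to 0.49), the reverse direction of Il15 and Kitl in the same class, and after the correction for gene length it was within 2-fold. ASPCs held 37 and 13 UMIs, at 11.2 and 16.9 CPM, a ratio of 0.66 (0.343 to 1.35). Of the 13 labelled WT, 11 lay in the unnamed subcluster 2, which passed 6 macrophage markers. The 12 macrophage markers summed to 1003 CPM in ASPCs labelled KO and 2385 CPM labelled WT, and their part in this ratio was not tested. Adipocytes held 5 labelled KO and 11 labelled WT, below the minimum of 20.

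Within the macrophages of the library labelled KO, Tslp was held by cluster 3, with Cd163, F13a1 and Mrc1, which mark resident macrophages, among its 10 leading genes. Cluster 3 had 93 Tslp UMIs in 542 nuclei, 52 CPM (42 to 63.7). Cluster 9, led by St18 and Gpr141, had 4 in 277 nuclei, 4.25 CPM. The ratio was 12.2 (4.63 to 45.9), and the median depth was similar at 2896.5 and 2990 UMIs. Cluster 7, which holds most macrophages labelled WT and is led by Timd4 and Ms4a7, had 64 UMIs in 312 nuclei at 106 CPM (81.7 to 136). Tslp thus separated these macrophage clusters more than Kitl did, whose ratio between clusters 3 and 9 was 1.17 (0.964 to 1.42). At 1000 UMIs per nucleus Tslp was found in 26 of 790 macrophages labelled KO and 27 of 254 labelled WT, and in 0 of 61 and 0 of 479 T/NK nuclei.

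**Figure D3:**
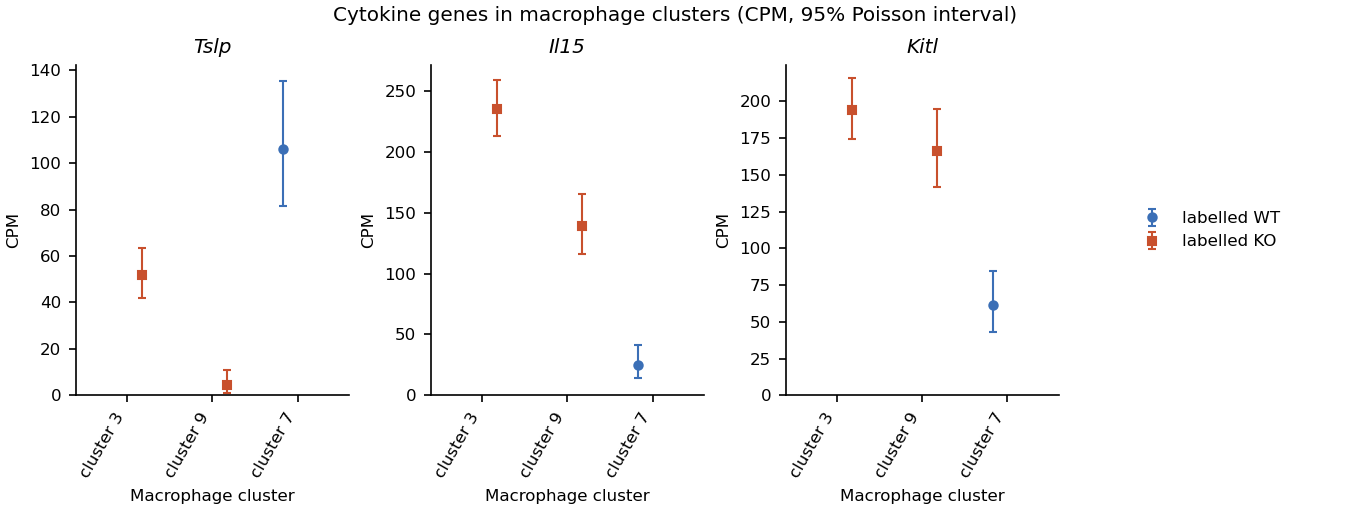
CPM (vertical axes, linear from 0) of Tslp, Il15 and Kitl in the macrophage clusters (horizontal axis) with at least 50 nuclei of a library, labelled KO (squares) or labelled WT (circles), with exact Poisson 95% intervals. Tslp stands at 52 CPM in cluster 3, 4.25 in cluster 9 and 106 in cluster 7, while Il15 and Kitl are lowest in cluster 7.

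Il6 was barely detected. It had 6 UMIs in the library labelled KO, 5 of them in 4 macrophage nuclei and 1 in an adipocyte, and 2 in the library labelled WT, 1 in a B cell and 1 in a dendritic cell. These are levels of 0.384 CPM (0.141 to 0.836) and 0.302 CPM (0.0366 to 1.09) over all kept nuclei, and no difference was detectable at this depth.

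The members past 2-fold were read against all genes with at least 20 UMIs over both libraries of the class. In ASPCs, 3 of 6 members had a ratio of at least 2 (Il33, Il15 and Tnfsf13b), beside 24.5% of 11832 genes, and 0 of 6 a ratio of at most 0.5, beside 11.9%. In adipocytes, 4 of 6 were at least 2 (Il33, Il7, Il15 and Kitl), beside 25.7% of 13532 genes, and 1 (Tnfsf13b) at most 0.5, beside 20.7%. In endothelial nuclei, 2 of 3 were at least 2 (Il15 and Kitl), beside 27.0% of 4568 genes, and 1 (Csf1) at most 0.5, beside 17.8%. In macrophages, 2 of 5 were at least 2 (Il15 and Kitl), beside 23.7% of 11205 genes, and 2 (Csf1 and Tslp) at most 0.5, beside 16.2%. All 4 adipocyte members called higher reached 20 UMIs through the library labelled KO. So did the 3 in ASPCs, and Il15 in endothelial nuclei and macrophages. Tslp in adipocytes, with 5 UMIs labelled KO against 11 labelled WT and a ratio of 0.102 (0.0279 to 0.319), was left out. In ASPCs, Il7 (3 UMIs against 3, ratio 0.232) and Tnfsf11 (0 against 3) were left out. Nothing is therefore read from the members' counts. Large ratios were common among all genes.

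**Figure D4:**
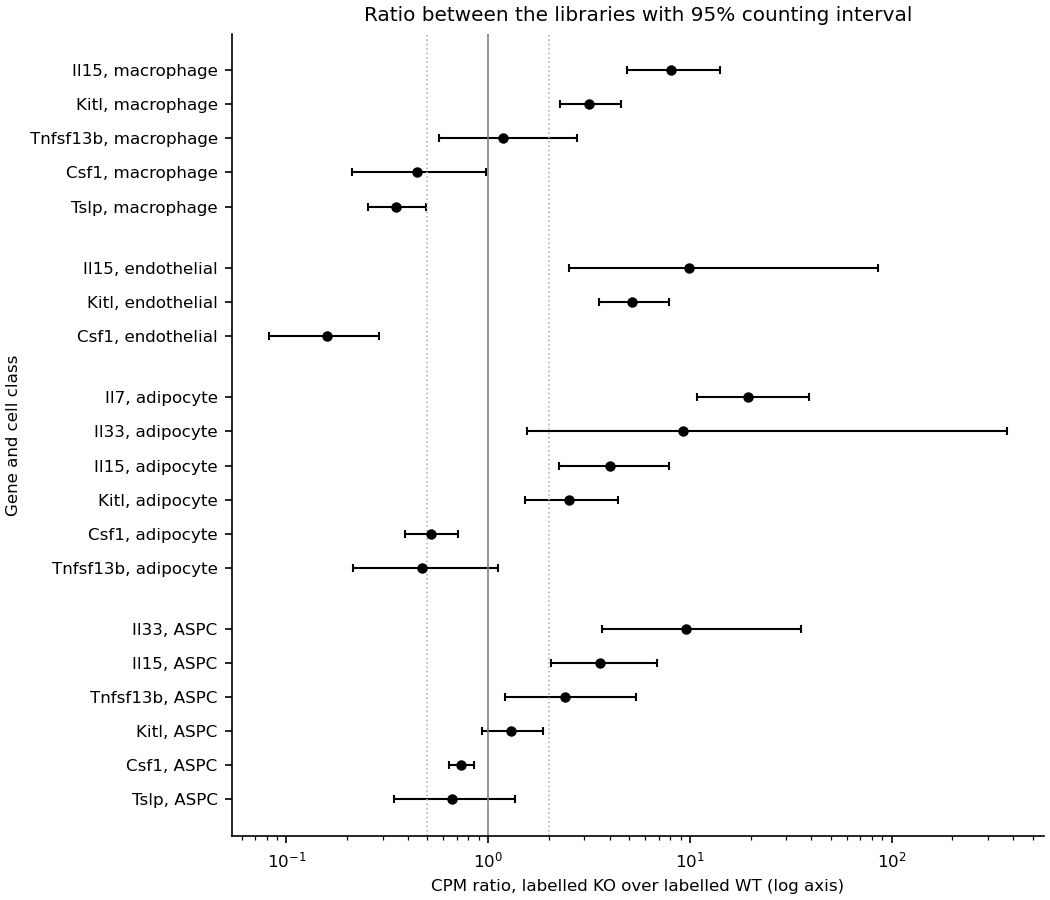
Ratio of CPM, labelled KO over labelled WT (horizontal log axis), for the 20 pairs of member and class with at least 20 UMIs over both libraries, grouped by class on the vertical axis. Points are ratios with exact conditional binomial 95% intervals, the solid line marks 1 and the dotted lines 0.5 and 2. Il7 in adipocytes lies farthest to the right at 19.5 and Csf1 in endothelial nuclei farthest to the left at 0.159.

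Gene length moved with the ratios. Genes with over 100000 intronic bases had a median log2 ratio of 1.49 in ASPCs, 1.35 in adipocytes, 1.36 in endothelial nuclei and 1.40 in macrophages, whereas genes with at most 3000 had -0.61, -0.92, -0.91 and -0.77. Kitl (78940 intronic bases) and Il15 (69678) are the longest members, Tslp (3284) the shortest, and Il7 (38259) and Il33 (32719) lie between. Relative to the median of genes of like length, the log2 ratio of Il7 in adipocytes went from 4.29 to 4.02 and that of Il33 in ASPCs from 3.26 to 3.08. In macrophages Il15 went from 3.01 to 2.29, Kitl from 1.67 to 0.94 and Tslp from -1.51 to -0.86, and Kitl went from 1.33 to 0.77 in adipocytes and from 0.39 to -0.28 in ASPCs. Kitl in macrophages and adipocytes and Tslp and Csf1 in macrophages were then within 2-fold. Endothelial Csf1 went from -2.65 to -2.04. Whether length bears on the members' ratios was not tested beyond this.

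Levels of T/NK marker genes in other classes also differed between the libraries. The 14 T/NK markers summed to 221 CPM in ASPCs labelled WT and 6.64 CPM labelled KO, with 12 and 9 detected, to 230 and 38.9 CPM in adipocytes, with 13 and 12 detected, and to 680 and 27.2 CPM in macrophages, with 14 and 11 detected. The 10 B cell markers, labelled WT and labelled KO, stood closer in ASPCs (4133 and 4340 CPM) and adipocytes (3865 and 3362 CPM). In macrophages they stood at 1655 and 547 CPM. The sum of the 8 markers listed for type 2 innate lymphoid cells went the other way in ASPCs, at 139 and 2042 CPM, with 5 detected in each. Of that list, Il1rl1 stood at 14.3 CPM in ASPCs labelled WT and 2.71 CPM labelled KO, and Il13 and Areg were at 0 in both. In myocytes labelled KO the list summed to 3054 CPM with only Rora detected, so the sum is not read as a signal of these cells. The part of all these markers in the members' ratios was not tested.

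The receptor side of the list, 18 receptors, decoys and second ligands, was read in the same classes. Csf1r, the CSF-1 receptor and itself one of the macrophage markers used for naming, stood at 445 CPM in macrophages labelled KO and 518 CPM labelled WT, a ratio of 0.859 (0.76 to 0.973). Il34, the other ligand of that receptor and 1 of the leading genes of the mural cluster itself, was highest in mural nuclei labelled KO, with 113 UMIs in 44 nuclei at 806 CPM (664 to 969), against 38.3 CPM in ASPCs. Among classes with at least 50 nuclei, Tnfrsf11a, the RANKL receptor, reached 223 CPM in macrophages labelled KO and 62.6 CPM labelled WT, a ratio of 3.57 (2.59 to 5.04), although the ligand gene Tnfsf11 had 5 UMIs in the library labelled KO. The log2 ratio of Tnfrsf11a went from 1.835 to 1.203 with the correction for gene length, smaller but still at least 2-fold. Il6ra, a chain of the IL-6 receptor, stood at 469 and 202 CPM in macrophages, a ratio of 2.33 (1.94 to 2.81). After the correction for gene length its log2 ratio went from 1.22 to 0.87, which is within 2-fold.

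Il1rl1, the IL-33 receptor, was found mostly in macrophages of the library labelled KO, with 249 UMIs at 90.4 CPM (against 13 UMIs at 20.3 CPM labelled WT). Clusters 3 and 9 held similar levels, 87.8 and 96.6 CPM. T/NK nuclei labelled KO had 11 UMIs at 71.7 CPM, which lay in 3 nuclei of cluster 14, and lymphoid stroma-like nuclei had 0. Il7r, the IL-7 receptor, was highest in T/NK nuclei among classes with at least 50 nuclei, with 961 UMIs at 909 CPM labelled WT and 62 at 404 CPM labelled KO, and the T/NK class was held by cluster 2, led by T cell receptor genes, when labelled WT but by cluster 14, led by NK genes such as Ncr1, when labelled KO. Il2rb, a chain of the IL-15 receptor, stood at 182 CPM labelled WT and 365 CPM labelled KO in T/NK nuclei. Il7r also lay at 35 CPM in adipocytes and 49.4 CPM in ASPCs labelled WT, against 0.926 and 0.603 CPM labelled KO.

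Among the BAFF receptors, Tnfrsf13c, a leading gene of the main B cell cluster, was highest in B cells, with 409 UMIs at 308 CPM labelled WT and 6 UMIs at 96.2 CPM labelled KO. Tnfrsf13b, which also binds APRIL, stood at 217 and 208 CPM there. Kit, the receptor for the Kitl product, was highest in lymphoid stroma-like nuclei, with 39 UMIs in 14 nuclei at 138 CPM (98.1 to 189). Il15ra, which presents IL-15 to neighbouring cells, was found in adipocytes at 237 CPM labelled KO and 260 CPM labelled WT, a ratio of 0.912 (0.827 to 1.01), although Il15 itself differed 4.03-fold there. Crlf2, the TSLP receptor chain, lay at 66.1 and 84.5 CPM in macrophages, a ratio of 0.782 (0.574 to 1.08). Of the 18 related genes, 12 had enough counts in ASPCs, where 2 were at least 2 and 6 at most 0.5, beside the 24.5% and 11.9% of all genes. Adipocytes had 2 and 8 of 14 (25.7% and 20.7%), endothelial nuclei 0 and 2 of 4 (27.0% and 17.8%), and macrophages 4 and 4 of 14 (23.7% and 16.2%). T/NK nuclei had 3 and 6 of 12 (17.2% and 22.3%), with the class held by different clusters.

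**Figure D5:**
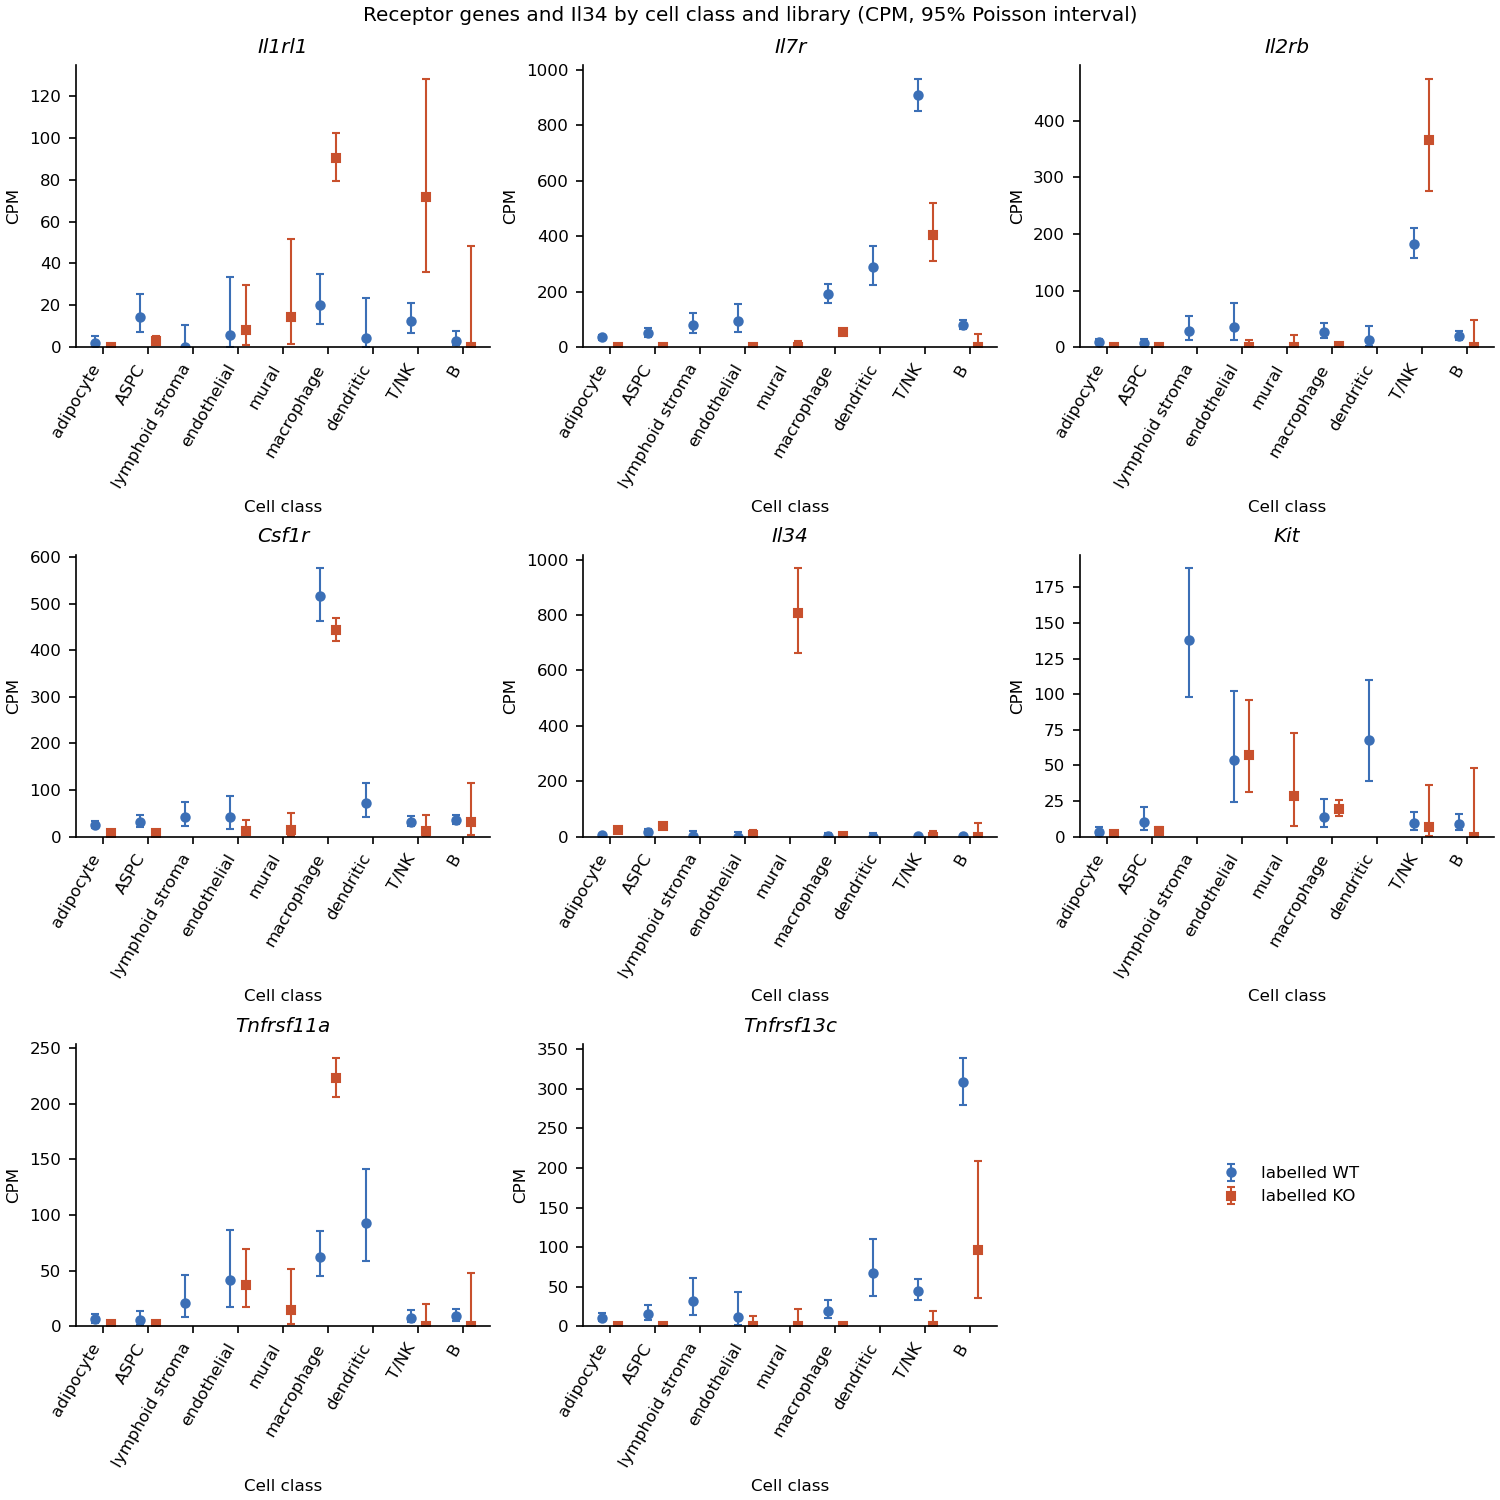
CPM (vertical axes, linear from 0) of 7 receptor genes and the ligand gene Il34 by cell class (horizontal axis) with at least 20 nuclei, in the library labelled WT (circles) and labelled KO (squares), with exact Poisson 95% intervals. Il7r and Il2rb peak in T/NK nuclei, Csf1r and Tnfrsf11a in macrophages, Tnfrsf13c in B cells and Il34 in mural nuclei at 806 CPM.

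Genes whose level most resembled that of a member were taken as the 3 highest Pearson correlations of log2(CPM + 10) over 14 units of 1 class in 1 library, among 12899 genes. The units share libraries, depth and clustering, so these are descriptions. Il7 was most like Adtrp (0.92), Pkp1 (0.91) and Esrrg (0.90), and Il33 most like Myl9 (0.94), Emp2 (0.92) and Gm29683 (0.91). Csf1 was most like Ddah2 (0.96), Selenom (0.94) and Sned1 (0.94), and Kitl most like Slc7a7 (0.93), Plekhg1 (0.93) and Sema6a (0.93). Il15 was nearest to Dennd5a (0.94), Gm38399 (0.93) and Agap3 (0.91). Tslp was nearest to the chemokine gene Ccl12 (0.92), Chp2 (0.92) and Dab2 (0.91), and Tnfsf13b to Wnt11 (0.88), Pappa (0.88) and Mrvi1 (0.88).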

How the data were processed

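The deposited files are the authors' count matrices: whole-number UMI counts per gene and barcode, not normalized, from 10x Genomics 3′ libraries. The submitters' processing notes name Cell Ranger 6.1.1, Seurat 4 and the mm10 build. The authors' files hold 5000 barcodes per library and 9376351 (labelled WT) and 19655049 (labelled KO) UMIs. Barcodes with under 500 genes or over 5% mitochondrial UMIs were left out. Scrublet (scanpy 1.11.5) marked 92 doublets labelled KO but 0 labelled WT, where it was taken as not having worked and the highest-scoring 4% (146) were removed. Nuclei were clustered without batch correction (Seurat 5.3.0, R 4.3.3; 2000 variable genes, 20 components, resolution 0.5). A marker passed when found in at least 5% of a cluster's nuclei at 2-fold or more over the mean CPM of the other clusters. A cluster took a name where at least 3 of that name's markers passed, 3 more than of any other list, and no other list had more markers among its 10 leading genes. An ASPC subcluster took the name of 1 of 3 ASPC type lists with at least 3 passed markers, 3 more than of the other type lists, where no list of another class passed more. Every member was named, with the 3 genes most like each member except Il6 and Tnfsf11. Of the 18 related genes, Il1rap, Il6st, Tnfrsf11b, Tnfrsf17 and Tnfsf13 are not described one by one. The members, lists and markers were chosen with earlier results of these data known, and the naming rule was written after the clusters had been seen. Intervals (95%) were exact Poisson, Clopper-Pearson and conditional binomial (scipy 1.17.1, Python 3.11.15). They treat UMIs as independent. A count of 0 allows 3 counts. Intronic lengths came from an annotation matched by gene ID for 82.0% of genes, and a ratio was set against the median of 501 genes of like length. The ratios and their intervals were tested on simulated counts, but the outcome is not given here and nothing is read from it. Alternatives used TMM (edgeR 4.0.16), other resolutions, gene and UMI minimums, integration, no doublet removal, and no mitochondrial genes or Malat1.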

Additional observations from a re-analysis of the deposited data

Results flagged for a closer look

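The Il33 ratio, labelled KO over labelled WT, ran in opposite directions in different classes. It was 9.56 in ASPCs (165 UMIs against 4) and 9.22 in adipocytes (41 against 1), but 0.137 in endothelial nuclei (2 against 10, under the minimum of 20 UMIs). At equal depth, 0 of 889 and 0 of 407 adipocytes held a UMI, so that arm was not detectable there. In the endothelial nuclei, lymphoid stroma markers stood at 367 CPM labelled KO and 1888 CPM labelled WT. Each class has 1 library per genotype, and the difference between the classes was not tested.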

How the results depend on the processing

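Of 147 recomputed ratios, 143 stayed within their counting interval and 4 left it. The sign changed in 1, Kitl in ASPCs, whose log2 ratio was 0.39, with an interval that included 0, and -0.28 after length correction. The main source was the same in 6 of 15 pairs of member and library at 1000 genes per nucleus, in 8 at resolution 0.2, where lymphoid stroma-like nuclei merged with endothelial nuclei, and in 11 without doublet removal. Of the 8 sources labelled WT, 8, 7 and 4 changed under these settings, against 1, 0 and 0 of the 7 labelled KO. The number of members at most 0.5 in ASPCs (0) was 2 with a minimum of 1 UMI. In ASPCs the number at least 2 (3) was 2 at 1000 genes per nucleus and without mitochondrial genes and Malat1, and in adipocytes (4) it was 3 after length correction and with 50 UMIs. The number at most 0.5 in adipocytes (1) was 2 without doublet removal, at resolution 1.0, at resolution 0.2 and without mitochondrial genes and Malat1, 0 with TMM and with a minimum of 50 UMIs, and 4 with 1 UMI. In endothelial nuclei (1) it was 4 at resolution 0.2 and 2 with 1 UMI, and the number at least 2 (2) was 1 with 50 UMIs. In macrophages the number at least 2 (2) was 1 after length correction, and the number at most 0.5 (2) was 1 without doublet removal, with TMM and with 50 UMIs, 0 after length correction and 4 with 1 UMI. At equal depth, 14 of 20 pairs of member and class were higher in the library labelled KO, 10 when thinned to 500 UMIs and 17 without thinning, beside 53.1%, 53.0% and 77.4% of all pairs of gene and class. No value could be had for macrophages and endothelial nuclei at 1000 genes per nucleus, or for macrophages at resolution 0.2, and without doublet removal the lymphoid stroma-like cluster stayed unnamed. No paired analysis was possible because each genotype had 1 library, which also leaves genotype, library, depth and pool of mice unable to be told apart.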
